A study of Mus musculus with 2 samples.

Results

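Endothelin-1 is a vasoconstrictor peptide that many arteries release, and its gene, Edn1, leads the markers that chose the cells described here, labelled type R-like after a capillary type of bone. They are Edn1-positive endothelial cells (ECs) that were not arterial and not tip-like by their transcripts. Members were selected on measured values: a cell counted as an EC with at least 1 UMI (1 captured mRNA molecule) of 3 or more of the 7 genes Cdh5, Pecam1, Kdr, Emcn, Tie1, Esam and Plvap and no Ptprc UMI. A member also had at least 1 Edn1 UMI, fewer than 2 of the 5 arterial genes Gja5, Sema3g, Stmn2, Fbln2 and Jag2, and fewer than 2 of the 5 tip genes Pgf, Nos2, Cxcr4, Esm1 and Angpt2. This rule selected 182 of 10937 ECs in the Control library and 197 of 11661 ECs in the Dach1OE library, which is 379 of 22598 ECs and of 55783 cells kept in all.

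Both libraries hold cells of femur and tibia from 30-day-old C57BL/6 mice carrying a Dach1 overexpression transgene (Dach1OE +/f), with the epiphysis removed. The Control mice had no Cre, whereas the Dach1OE mice carried Apj CreERT2, a tamoxifen-inducible Cre driven by the promoter of the apelin receptor gene, which capillary ECs express. Tamoxifen was given to both groups on the first and the second postnatal day, and haematopoietic cells were depleted with beads before capture. Each group is 1 library pooled from male and female mice, so no difference between the groups has a replicate check, and intervals (95%, exact unless named otherwise) cover counting error only. Of the members, 59 in Control and 61 in Dach1OE were XX and 33 and 45 were XY by Xist against Y-linked UMIs, which gives an XX pair and an XY pair, and in each pair sex and animals go together.

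The libraries held 143986818 UMIs in 28720 cells (Control) and 166999989 UMIs in 32028 cells (Dach1OE). The members were sampled to a median of 3166 UMIs per cell in Control and 3120 in Dach1OE, against 2967 and 2925 in Edn1-negative ECs of the same kind. Pooled, they gave 729749 and 864638 UMIs. No member shared its cell index with a member of the other library. The caller Scrublet marked 18 Control and 26 Dach1OE members as possible doublets. These were 9.89% and 13.2% of members, against 9.54% and 9.73% of the Edn1-negative ECs. In 17 and 23 members stromal, chondrocyte and mural marker genes made up over 5% of UMIs. That was 9.34% and 11.7% of members, against 5.96% and 8.22% of the Edn1-negative ECs.

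Bone capillaries come in several kinds. Sinusoidal (type L) vessels fill the marrow and carry scavenger receptors such as Stab2, metaphyseal (type H) vessels lie near the growth plate, and type R vessels are capillaries downstream of arteries near trabecular bone. Type R ECs are known for caveolin-1 (Cav1) and for the secreted factors C1qtnf9, Bmp6 and Ntf3, with endomucin (Emcn) present and VEGFR3 (Flt4) low. Edn1 lies on chromosome 13 from 42301476 to 42307990 (plus strand, GRCm38, GENCODE release M21).

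Edn1 itself chose the members, so its level is given as a description. Control members held 299 Edn1 UMIs (410 CPM, meaning UMIs of the gene scaled to a fixed total of UMIs per pool) and Dach1OE members 312 (361 CPM). Most rested on a single molecule: 120 of 182 Control members and 139 of 197 Dach1OE members had exactly 1 Edn1 UMI, and the highest cell of each library had 11. Arterial ECs, which the rule left out, held Edn1 more often, in 22.6% of 923 cells in Control and 29.4% of 1910 cells in Dach1OE. Members made up 46.1% of the 395 Edn1-positive ECs in Control and 25.4% of the 777 in Dach1OE. Arterial ECs themselves were 8.44% of ECs in Control and 16.4% in Dach1OE.

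Edn1 detection was also compared between cell classes, with every cell thinned to 1000 UMIs. Edn1 was then found in 0.864% of 9605 non-arterial, non-tip ECs in Control (interval 0.689 to 1.07%) and in 1.01% of 9164 in Dach1OE (0.820 to 1.24%). Chondrocytes held it in 0.0438% of 4563 and 0.0459% of 6543 cells, and blood cells in 0 of 597 and 0 of 691 cells (exact upper bounds 0.616% and 0.532%). Without thinning, chondrocytes reached 0.284% and 0.473% at median depths of 9787 and 9205 UMIs, still below the 1.85% and 2.08% of the shallower capillary ECs. At 1000 UMIs per cell the shares in non-arterial, non-tip ECs were above those of both other cell classes. Edn1 chose the members, so these shares are a description. The part of free RNA, and of RNA from arterial ECs, in them was not tested.

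**Figure D1:**
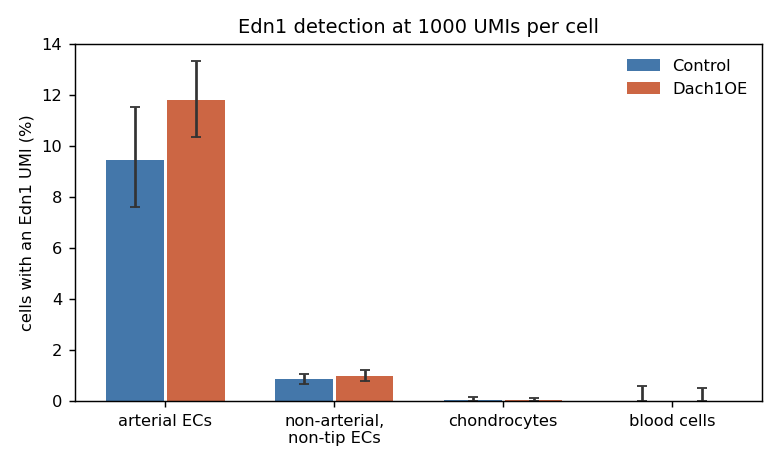
Share of cells with an Edn1 UMI after thinning each cell to 1000 UMIs, in percent (y axis), for 4 cell classes in Control (blue) and Dach1OE (orange); bars are shares and error bars are exact 95% binomial intervals. Arterial ECs reach 9.46% and 11.8%, non-arterial, non-tip ECs 0.864% and 1.01%, and chondrocytes and blood cells lie near 0.

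The first question was whether Dach1OE bones held more of these cells. Members were 1.66% of ECs in Control (interval 1.43 to 1.92%) and 1.69% in Dach1OE (1.46 to 1.94%). The difference of 0.0253 percentage points had a Newcombe interval from -0.312 to 0.361. In XX cells the shares were 1.66% and 1.69%, and in XY cells 1.27% and 1.63%. The intervals of the differences ran from -0.567 to 0.639 points in XX cells and from -0.299 to 1.01 in XY cells. They cover counting error only, and both span no change. Among non-arterial, non-tip ECs members were 1.85% and 2.08% (difference 0.232 points, interval -0.160 to 0.627). At 1000 UMIs per cell, with the rule applied anew, the shares among ECs were 1.14% and 1.39% (difference 0.253 points, interval -0.067 to 0.573).

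The values on either side of the limit on arterial genes are given as a description. Control members with exactly 1 arterial gene had 475 CPM of Edn1 (113 cells), and the 71 cells just outside with exactly 2 had 600. In Dach1OE these values were 360 (118 cells) and 462 (83 cells). Members with 0 arterial genes had 322 in Control and 362 in Dach1OE, and cells outside with 3 or more had 413 and 393. The allowed arterial gene was mostly Fbln2, which encodes the matrix protein fibulin-2. It was found in 103 of 182 Control members and 78 of 197 Dach1OE members, while Gja5, which encodes the arterial connexin-40, was found in 0 and 5.

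The label type R-like was then checked against genes that the rule did not use. C1qtnf9, a secreted relative of adiponectin encoded on chromosome 14 (60768134 to 60780869, plus strand), was at 159 CPM in Control members (interval 131 to 191) and at 76.3 in Dach1OE members (59.0 to 97.1). In Edn1-negative capillary ECs, meaning the ECs that met every part of the rule but Edn1, it was at 5.51 and 6.53. Its log2 ratio over these cells was 4.85 in Control and 3.55 in Dach1OE. Fmo2, a flavin monooxygenase gene, was at 169 and 63.6 CPM in members, against 12.6 and 6.4. Its level also exceeded that of arterial ECs, which was 43.9 and 12.6. These genes were high in members of both libraries, and higher in Control.

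The markers that came with the label were less uniform. Bmp6, a ligand that induces bone formation, had 26 UMIs in Control members (35.6 CPM, against 18.3 in Edn1-negative cells) and 58 in Dach1OE members (67.1 against 18.8). Ntf3, the neurotrophin-3 gene, rested on 7 UMIs in 5 Control members and 9 UMIs in 7 Dach1OE members. Cxcl12, a chemokine that retains blood cell progenitors, was at 755 and 433 CPM, with log2 ratios over Edn1-negative cells of 0.09 (interval -0.04 to 0.21) and 0.13 (-0.03 to 0.27). Over 18 alternative settings the Cxcl12 ratio ran from -0.83 to 0.95 in Control and from -1.10 to 1.17 in Dach1OE. Cxcl12 was lower in members than in arterial ECs, which had 1475 and 1826 CPM. Aqp7, which encodes an aquaglyceroporin, gave 1 and 8 UMIs, and Timp4, a metalloproteinase inhibitor gene, 1 and 0.

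Emcn was at 447 and 421 CPM, but the rule used it. Flt4 was detected in 33.5% of Control members and 41.1% of Dach1OE members, at 270 and 220 CPM, below the 598 and 423 of Edn1-negative cells. Since many members held Flt4 and most held fewer than 2 of the type R genes counted below, the cells are called Edn1-positive non-arterial ECs here.

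**Figure D2:**
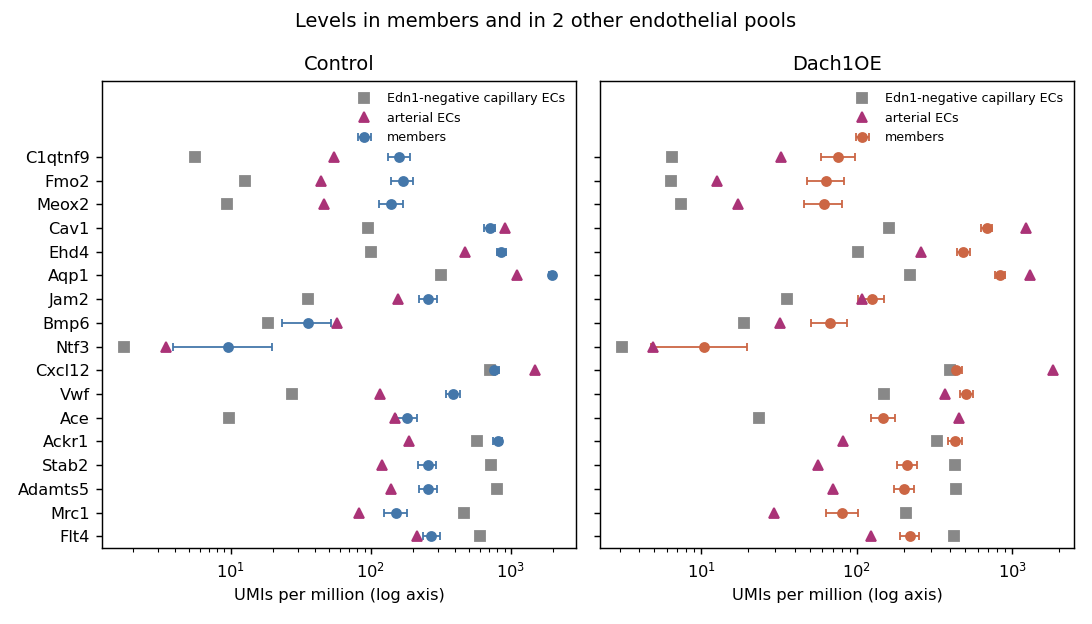
Levels of 17 genes in CPM on a log axis, for members (circles, with exact 95% Poisson intervals), Edn1-negative capillary ECs (grey squares) and arterial ECs (purple triangles) in the Control and Dach1OE libraries. C1qtnf9, Fmo2 and Meox2 are highest in members of both libraries, Cxcl12 in members lies at the level of Edn1-negative cells, and Stab2, Adamts5, Mrc1 and Flt4 lie between both other pools.

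Cells were also counted by class. A cell was put in a class when it held 2 or more of 6 genes. The type R class (C1qtnf9, Fmo2, Aqp7, Bmp6, Ntf3, Timp4) took 24.2% of Control members (44 cells, interval 18.2 to 31.1%) and 19.8% of Dach1OE members (39 cells, 14.5 to 26.0%). In Edn1-negative cells it took 1.93% and 1.36%, and in arterial ECs 9.10% and 4.87%. Below 10% mitochondrial UMIs the type R share of Control members was 15.1% and the sinusoidal share 47.2%. The median mitochondrial share was 9.42% in Control members against 7.98% in Edn1-negative cells, and 8.36% against 7.93% in Dach1OE. The sinusoidal class (Stab2, Adamts5, Rgs4, Vcam1, Adgrg6, Flt4) took more members, 35.7% and 38.1%, but far fewer than the 81.0% and 64.5% of Edn1-negative cells. In members the 6 type R genes summed to 375 CPM in Control and 227 in Dach1OE, and the 6 sinusoidal genes to 1354 and 1048. Shares of different classes therefore do not rank the classes, and the part of detection in them was not tested. The metaphyseal class (Ramp3, Piezo2, Lamb1, Apln, Col4a1, Ces2e) took 31.9% and 45.2% of members, beside 34.5% and 43.8% of Edn1-negative cells and 54.0% and 41.8% of arterial ECs. Both type R and sinusoidal classes fell on the same cell in 6 Control and 4 Dach1OE members, and 57 and 50 members were in none of the classes. At 1000 UMIs per cell the type R class was 11.9% of 177 Control members and 4.71% of 191 Dach1OE members, and the sinusoidal class 20.9% and 16.2%.

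Members were also split by arterial genes and Edn1 UMIs, which the rule had used, so these shares are a description. The type R class was more frequent in members with an arterial gene, which was mostly Fbln2. Fbln2 was found in 56.6% and 39.6% of members, against 10.6% and 6.77% of Edn1-negative cells. Each of the other 4 arterial genes was found in at most 10.2% of members. Among Control members with 1 arterial gene it took 34.5% (39 of 113), and among those with 0 it took 7.25% (5 of 69). In Dach1OE these shares were 28.0% (33 of 118) and 7.59% (6 of 79). The sinusoidal class ran the other way, with 22.1% and 58.0% in Control and 23.7% and 59.5% in Dach1OE. Edn1-negative ECs with 1 arterial gene had the type R class in 5.71% and 3.71%, and those with 0 in 1.10% and 0.79%. Their sinusoidal class took 58.8% and 47.2% with 1 arterial gene and 85.9% and 68.8% with 0. The directions were thus the same as in members. Members with 2 or more Edn1 UMIs held the type R class in 38.7% (Control, 24 of 62) and 27.6% (Dach1OE, 16 of 58), those with 1 Edn1 UMI in 16.7% and 16.5%.

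**Figure D3:**
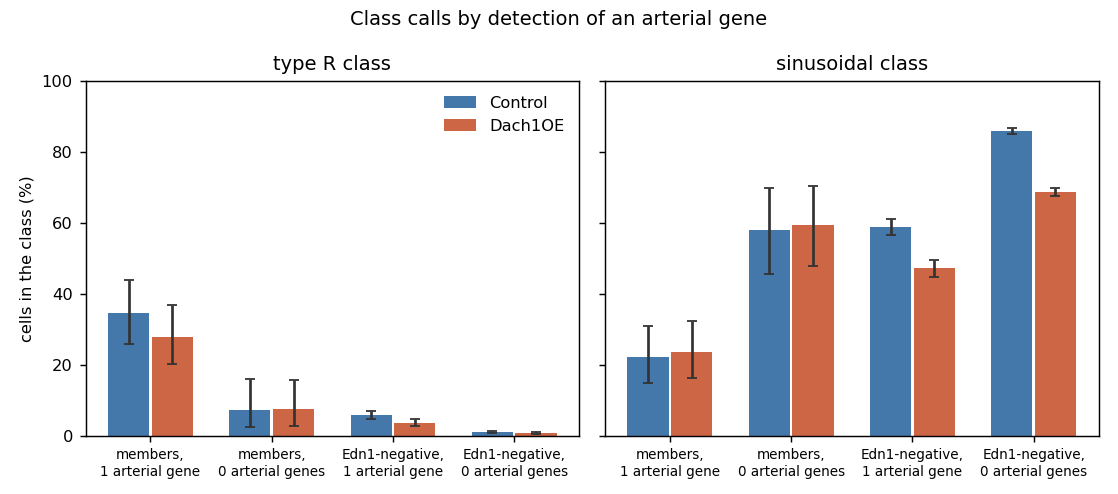
Share of cells, in percent, in the type R class (left) and in the sinusoidal class (right), for members and Edn1-negative capillary ECs with 1 or 0 of the 5 arterial genes, in Control (blue) and Dach1OE (orange); error bars are exact 95% binomial intervals. Members with 1 arterial gene have the highest type R share (34.5% and 28.0%), and members with 0 have a sinusoidal share of 58.0% and 59.5%. The rule used the arterial genes, so the split is a description.

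Members in only 1 of the type R and sinusoidal classes were compared in genes that neither class used, and the other members were left out. The type R and sinusoidal pools also differed in depth, with medians of 3433 against 5221 UMIs per cell in Control and 2977 against 4304 in Dach1OE. Control members of the type R class without the sinusoidal class (38 cells) had Cav1 at 1561 CPM, against 156 in members of the sinusoidal class without the type R class (59 cells). In Dach1OE the values were 1527 (35 cells) and 191 (71 cells). Ehd4, which encodes a membrane-trafficking ATPase, was at 1937 against 266 and at 990 against 231. Mrc1, the mannose receptor gene of sinusoids, was the opposite, with 1 UMI in the type R cells against 105 in the sinusoidal cells of Control and 0 against 68 in Dach1OE. Markers of other cell types also differed between these pools. Col1a1, a collagen gene of bone-forming cells, was at 1093 against 16946 CPM in Control and at 12120 against 18419 in Dach1OE. Adipoq, a gene of marrow stromal cells, went the other way, at 263 against 40.6 in Control and 104 against 10.6 in Dach1OE. Col2a1, a cartilage collagen gene, was at 773 against 9434 in Control and at 24551 against 7384 in Dach1OE. Cells with over 5% of UMIs from other-type markers were 0 of 38 against 8 of 59 in Control and 6 of 35 against 6 of 71 in Dach1OE, and their part in these differences was not tested.

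The second question was how members differ from Edn1-negative capillary ECs. A gene was counted when the mean of its levels in both pools was at least 20 CPM, and called at a 2-fold difference. In Control 6899 genes were counted, of which 2.75% were at least 2-fold higher and 2.57% at least 2-fold lower in members. In Dach1OE 6948 genes were counted, with 1.55% higher and 1.58% lower. The median log2 ratio of all counted genes was -0.07 in each library. The same call was reached in both libraries by 73 genes that were higher and 38 that were lower.

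The study lists genes for type R ECs from other libraries. Of 37 counted in Control, 29 were called higher and 0 lower, with a median log2 ratio of 1.59. Of 37 counted in Dach1OE, 16 were called higher and 0 lower, with a median of 0.87. In members with no arterial and no tip gene the medians were 0.76 in Control and 0.44 in Dach1OE. Cav1, the main coat protein of caveolae, was at 703 CPM in Control members against 95.4, and at 685 against 162 in Dach1OE. Aqp1, a water channel gene, was at 1954 against 318 and at 837 against 220. Jam2, a junctional adhesion gene, was at 256 against 35.6 and at 125 against 35.6. Ybx1, which encodes an RNA-binding protein, had a log2 ratio of -0.04 in each library.

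All 8 counted caveolar genes had a positive ratio in each library, 4 of them called in Control (median 1.27) and 2 in Dach1OE (median 0.82). Ehd4 was at 855 against 100 CPM in Control and at 485 against 102 in Dach1OE. Of 9 counted genes of fatty acid and water transport, 4 were called higher in each library, and 1 was called lower in Control (Gpihbp1, log2 ratio -1.09) and 0 in Dach1OE. Meox2, a homeobox gene of continuous capillaries that handle fatty acids, was at 140 against 9.35 in Control and at 61.3 against 7.37 in Dach1OE. Fabp4, a fatty acid carrier gene, was abundant in every pool, with log2 ratios of 0.27 and 0.37.

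Of 19 counted genes of the sinusoidal list in Control 12 were called lower and 0 higher (median -1.16), and of 18 in Dach1OE 4 were called lower and 0 higher (median -0.77). Stab2, a hyaluronan scavenger receptor gene, was at 254 against 718 CPM in Control and at 210 against 431 in Dach1OE. Ackr1, an atypical chemokine receptor gene of venules, went the other way at 802 against 576 and 427 against 330. Of the metaphyseal list 0 genes were called higher in either library, and 2 of 18 (Control) and 1 of 18 (Dach1OE) were called lower. Of the study's arterial list 6 of 16 counted genes were called higher and 0 lower in each library. The medians were 0.56 in Control and 0.71 in Dach1OE, beside 2.75% and 1.55% of all counted genes called higher.

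**Figure D4:**
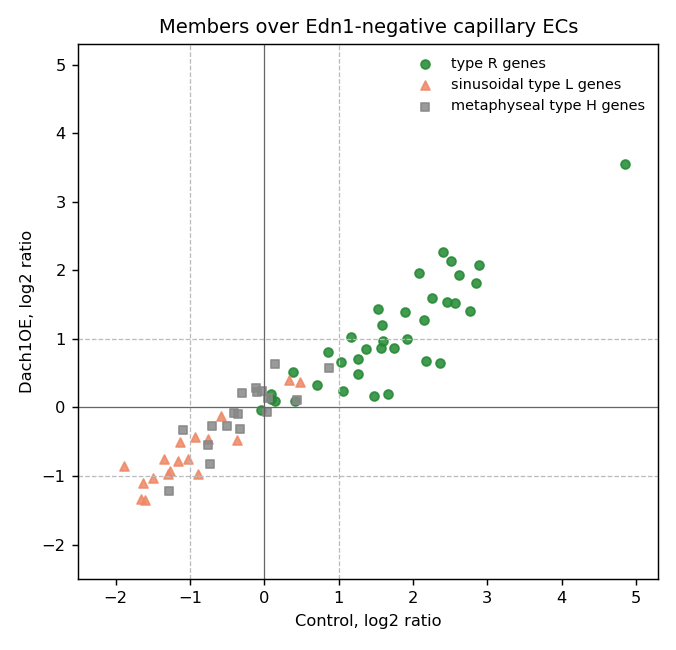
Log2 ratio of members over Edn1-negative capillary ECs in Control (x axis) and in Dach1OE (y axis) for the counted genes of the type R (green circles), sinusoidal type L (orange triangles) and metaphyseal type H (grey squares) lists; dashed lines mark a 2-fold difference. Type R genes lie mostly above 0 on both axes with C1qtnf9 farthest out, sinusoidal genes mostly below 0.

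Within the endothelin system, Ece1, which encodes the enzyme that matures endothelin, was at 286 against 164 CPM in Control and at 209 against 151 in Dach1OE. The other ligands, Edn2 and Edn3, gave 0 UMIs in members, which allows up to 4.11 CPM in Control and 3.47 in Dach1OE (3 counts per pool). Ednrb, the endothelial receptor gene, was at 42.5 against 65.5 and at 64.8 against 58.5. Of 10 counted genes of the vasoactive system, 1 was called higher in each library. It was Ace, the gene of angiotensin-converting enzyme, at 181 against 9.69 in Control and at 148 against 23.5 in Dach1OE. Bmp4 was the BMP ligand gene with the higher level in Control members, at 137 against 25.3, and was at 108 against 56.9 in Dach1OE.

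Other lists were divided. Of 10 counted scavenger receptor and endocytosis genes in Control 4 were called lower and 0 higher (median -0.92), and of 9 in Dach1OE 2 were called lower and 0 higher (median -0.87). Mrc1 was at 151 against 458 CPM in Control and at 81.0 against 207 in Dach1OE. Of 18 counted genes of basement membrane and elastic matrix, 6 were called higher in Control and 5 in Dach1OE, with 0 lower. Of the BMP list 1 of 16 (Control) and 1 of 15 (Dach1OE) were called higher, Bmp4 in Control and Bmp6 in Dach1OE. Of the Notch list 0 of 9 were called in Control, and in Dach1OE 1 of 10 was called higher, Hey1 with a log2 ratio of 1.90. Of the coagulation list 2 of 8 were called higher and 3 lower in Control, 3 of 9 higher and 1 lower in Dach1OE. Vwf, the von Willebrand factor gene, was at 386 against 27.2 CPM in Control and at 508 against 151 in Dach1OE.

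Among the genes ranked by their ratio, those with a strong ratio in both libraries included Masp1, a complement lectin-pathway protease gene on chromosome 16 (23449417 to 23520815, minus strand). It was at 41.1 against 1.98 CPM in Control and at 40.5 against 2.44 in Dach1OE, found in 25 and 22 members. Fgl2, which encodes a fibrinogen-like prothrombinase, was at 174 against 15.9 and at 135 against 8.51. Pgm5 (126 against 9.40 in Control and 62.5 against 5.93 in Dach1OE) encodes a protein of adherens-type junctions. Eln, the elastin gene and a member of the matrix list, was at 1324 against 167 and at 1086 against 225, and Cdh13, the T-cadherin gene of the type R list, at 273 against 51.6 and 226 against 47.1. No single cell gave over 17.1% of the UMIs of any of these genes in a pool.

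The genes ranked lowest in both libraries included those of platelets and megakaryocytes. Ppbp was at 74.0 against 584 CPM in Control and at 61.3 against 462 in Dach1OE, and Pf4, platelet factor 4, at 149 against 587 and 69.4 against 470. In Control 1 member held 80.7% of the Pf4 UMIs, and 1 member held 70.4% of the Ppbp UMIs. The summed megakaryocyte marker level was 248 against 1252 and 146 against 1014. The summed erythroid marker level was 410 against 355 in Control, with 0 of 5 counted markers called, and 44.0 against 470 in Dach1OE, with 4 of 4 called lower (median log2 ratio -2.97). The summed level of 10 stromal markers was higher in members, at 17990 against 7684 and 21124 against 11546. Without the cells in which other-type markers passed 5%, the median log2 ratio of the type R list was 1.78 in Control and 1.04 in Dach1OE.

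The third question was how members differ from arterial ECs, from which the rule had divided them. Of 6907 counted genes in each library, 2.39% were at least 2-fold higher and 3.56% at least 2-fold lower in Control members, and 3.23% and 3.65% in Dach1OE members. Of 38 counted genes of the type R list, 4 were called higher and 4 lower in Control (median log2 ratio -0.07), 3 higher and 5 lower in Dach1OE (median -0.50). The medians over all counted genes were -0.05 and -0.07. In members with no arterial and no tip gene the type R medians were -1.23 in Control and -1.34 in Dach1OE. In members with fewer than 2 sinusoidal class genes they were 0.38 and 0.078. Cav1 had log2 ratios of -0.36 in Control and -0.84 in Dach1OE, and in Control the direction turned with at least 2 Edn1 UMIs (0.10) and with fewer than 2 sinusoidal class genes (0.23). C1qtnf9 (1.55 and 1.24), Fmo2 (1.94 and 2.33) and Meox2 (1.59 and 1.84) had ratios above 2-fold in both libraries. In members with no arterial and no tip gene the direction turned for C1qtnf9 (-1.64 and -1.09) and Meox2 (-0.42 and -1.18), and for Fmo2 in Control (-0.33).

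The rule divided these pools by arterial genes, so lower levels of other arterial genes were built in and are given as a description. Of 18 counted genes of the study's arterial list, 11 were called lower in Control and 14 in Dach1OE, with 0 higher. Gja4, the connexin-37 gene, was at 13.7 against 402 CPM in Control and at 99.5 against 1032 in Dach1OE. Of 10 counted Notch genes 6 were called lower in each library, among them Hey1, a Notch target, at 9.59 against 85.3 and 42.8 against 248. Igfbp3, which encodes an IGF-binding protein, was at 115 against 804 and 84.4 against 917. Among the genes higher in members were Ackr1 (802 against 186 and 427 against 81.7), Selp, the P-selectin gene (284 against 77.4 and 154 against 32.5), and Cd36, a fatty acid translocase gene (939 against 284 and 313 against 79.8). Bmp4 was at 137 against 33.0 and at 108 against 25.5. The same ranking held the collagen gene Col1a2 (12090 against 3742 and 15413 against 4575). Its log2 ratio in Dach1OE was 1.78 in XX cells but -1.21 in XY cells, and 1 member gave 21.7% (Control) and 21.8% (Dach1OE) of its UMIs. The summed stromal marker level was 17990 against 6200 in Control and 21124 against 6905 in Dach1OE, with 2 of 8 and 5 of 9 counted markers called higher, and its part in the ratios was not tested.

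The fourth question was how these cells differed between Dach1OE and Control. Of 6843 counted genes, 2.22% were at least 2-fold higher and 2.57% at least 2-fold lower in Dach1OE members, with a median log2 ratio of -0.01. Dach1, the transgene's gene on chromosome 14, had 13 UMIs in 10 Control members (17.8 CPM) and 90 UMIs in 56 of 197 Dach1OE members (104 CPM). The log2 ratio was 2.55 (interval 1.70 to 3.51), and 2.60 in XX and 2.70 in XY cells. In Dach1OE, Dach1 was found in 28.4% of members, 33.6% of Edn1-negative capillary ECs and 43.6% of arterial ECs. In Control it was found in 5.49% of members (10 cells), 1.60% of Edn1-negative cells and 4.12% of arterial ECs. At 1000 UMIs per cell these shares were 11.0%, 15.4% and 17.5% in Dach1OE and 2.26%, 0.445% and 1.10% in Control. Reads of the transgene and of the endogenous gene cannot be told apart in these tables.

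**Figure D5:**
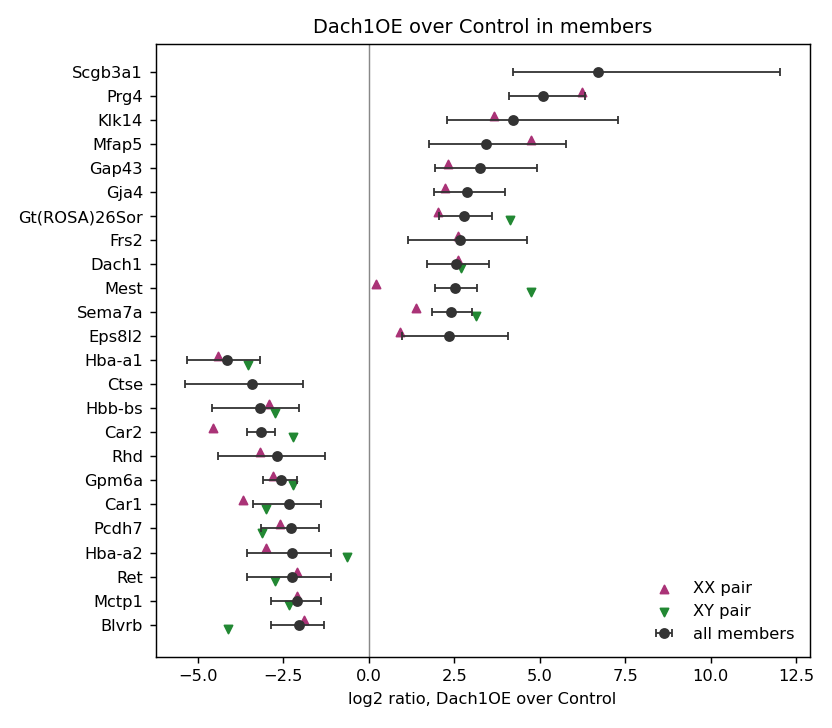
Log2 ratio of Dach1OE over Control members for the 12 largest rises and 12 largest falls with the same direction in both sex-matched pairs; circles with exact 95% counting intervals are all members, and triangles are the XX pair (up) and the XY pair (down), drawn only where both mice had UMIs. Scgb3a1 has the largest ratio (6.71), Dach1 is at 2.55, and Hba-a1 is lowest at -4.15.

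Of 38 counted type R genes, 6 were called lower and 0 higher in Dach1OE members, with a median log2 ratio of -0.34 (beside 2.57% of all counted genes called lower). This median was -0.036 in members with no arterial and no tip gene and -0.063 below 10% mitochondrial UMIs. The summed level of the type R list was 21114 CPM in Control and 16876 in Dach1OE members. It was 8029 and 9298 in Edn1-negative cells, and 25032 and 23391 in arterial ECs. C1qtnf9 was at 159 CPM in Control members and 76.3 in Dach1OE members, with XX values of 169 and 73.6 and XY values of 108 and 18.99. Fmo2 was at 169 and 63.6, with XX values of 179 and 56.9 and XY values of 76.2 and 42.7. Both genes were lower in Dach1OE in each pair, but the XY values rest on few UMIs and carry no interval here. Cd36 was at 939 and 313, and Aqp1 at 1954 and 837. Cav1 was level, at 703 and 685 (log2 ratio -0.04, interval -0.21 to 0.14). Bmp6 went the other way, at 35.6 and 67.1 (log2 ratio 0.91, interval 0.22 to 1.64).

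Of 18 counted sinusoidal genes 6 were called lower and 1 higher (median -0.90). Gpm6a, a neuronal-type membrane glycoprotein gene, was at 297 CPM in 77 Control members and 49.7 in 26 Dach1OE members. The exception was Clca3a1, a chloride channel regulator gene, at 98.7 and 287. Of the 6 sinusoidal class genes 0 were called (median -0.35). The summed level of the sinusoidal list was 7466 CPM in Control and 4689 in Dach1OE members, and 12998 and 7193 in Edn1-negative cells. Of 9 counted genes of fatty acid and water transport, 4 were called lower and 1 higher, with a median of -0.71. The summed level of this list was 11338 CPM in Control and 6762 in Dach1OE members, and 7923 and 4961 in Edn1-negative cells. Both lists were thus also lower in Dach1OE among Edn1-negative cells.

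Arterial genes of the study's list were called higher in 3 of 17 counted and lower in 0, beside 2.22% of all counted genes called higher. The median log2 ratio of the list was 0.16, with 10 positive and 7 negative ratios. Its summed level was 5011 CPM in Control and 5038 in Dach1OE members. Gja4 was at 13.7 CPM in 7 Control members and 99.5 in 30 Dach1OE members. Sox17, an arterial transcription factor gene, was at 52.1 and 134, with XX values of 57.4 and 107 and XY values of 50.8 and 195. Slc6a6, a taurine transporter gene, was at 82.2 and 271. Sema7a, a membrane-anchored semaphorin gene, was at 39.7 in 18 members and 212 in 70. In the Dach1OE library it stood at 192 in Edn1-negative cells and 965 in arterial ECs. Hey1 was the 1 of 10 Notch genes called, at 9.59 and 42.8.

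The largest ratios rested on unequal numbers of cells. Scgb3a1, a secretoglobin gene, gave 1 UMI in Control and 124 in 45 Dach1OE members. It belongs to a list of 5 genes raised in ECs under Dach1, chosen on these same libraries. As a description, this list summed to 143 CPM in Control and 734 in Dach1OE members. The sums were 170 and 846 in Edn1-negative cells and 239 and 2204 in arterial ECs, so the rise was not particular to members. The Rosa26 transcript Gt(ROSA)26Sor, at the locus that holds the transgene, gave 17 UMIs in 16 members and 139 in 73. Prg4, the lubricin gene, gave 8 and 327, but 1 Dach1OE cell held 95.4% of the latter. Mest, an imprinted gene, was at 46.6 and 53.5 CPM in the XX pair and at 19.1 and 508 in the XY pair. Among the lower genes, Pcdh7, a protocadherin gene, was at 89.1 in 37 members and 18.5 in 13, and Ret, a receptor kinase gene, at 43.8 and 9.25. Haemoglobin and other erythroid genes (Hba-a1, Hbb-bs, Car1, Car2 and Rhd) were also over 2-fold lower. The summed erythroid marker level was 410 in Control and 44.0 in Dach1OE members, and the summed level of 6 chondrocyte markers was 10376 and 16192, with 6 of 6 ratios positive and 0 of 6 called. The part of either in the other ratios was not tested.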

How the data were processed

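Cells of bone were captured by BD Rhapsody whole-transcriptome analysis, 1 library per group. The deposited tables give counts per cell and gene: reads, raw UMIs and UMIs adjusted for sequence errors (RSEC). Per the file headers, the authors made them with the BD Rhapsody WTA Analysis Pipeline 1.11 on GRCm38 with GENCODE M19, with intronic reads counted, so immature transcripts add to every level. Reads per UMI were 1.51 and 1.45.

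Here, RSEC counts were used. Cells with 500 to 6000 genes and under 25% mitochondrial UMIs were kept (26466 Control, 29317 Dach1OE). UMIs were summed over the cells of a class and scaled to the pool's total as CPM (each gene's UMIs over all UMIs of the pool, times 1e6). With 1 library per group no test was run and cells were not treated as replicates. Log2 ratios carry the exact conditional binomial interval, levels the exact Poisson interval, shares the Clopper-Pearson interval and differences of shares the Newcombe interval. Calls are a log2 ratio of 1 or more in size among genes with a mean of both CPM values of at least 20, with genes of the rule, sex-linked and mitochondrial genes left out. Beyond the gene lists, the text names genes from the 12 largest rises and falls between groups that had 1 direction in both sex pairs, and the 15 highest and 10 lowest by the smaller ratio of both libraries. The members, the gene lists and the genes named were chosen with earlier results of these data known. The type R, sinusoidal, metaphyseal and arterial lists come from the study's other libraries. Blood cells held Ptprc and fewer than 3 of the endothelial genes. Chondrocytes held 4 or more of 6 markers, no Ptprc and fewer than 3 of the endothelial genes. Doublets were marked with Scrublet (scanpy 1.11.5) and kept. A total of 1049 cell indices occurred in both tables, and 12 members had an index also present in the other table. Alternative scaling used edgeR 4.0.16. Scripts ran under Python 3.11.15 and were tested on simulated data. Coordinates are from GENCODE M21 on the same build. Some results are not reported here.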

Additional observations from a re-analysis of the deposited data

Results flagged for a closer look

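Several genes of the lists pointed in opposite directions in the 2 libraries or in the 2 sex-matched pairs, with each counting interval clear of 0 and log2 ratios at least 1 apart. These differences were not tested, since each group is 1 library.

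Over Edn1-negative capillary ECs, the log2 ratios of members in Control and in Dach1OE were opposite for Cdkn1c (-0.46 and 0.57), Hbb-bs (0.59 and -2.77). Over arterial ECs they were opposite for Ace (0.29 and -1.61), Acta2 (0.42 and -1.21), Aqp1 (0.82 and -0.63), Bcam (0.47 and -0.93), Bmp6 (-0.69 and 1.06), Car1 (0.61 and -2.52), Comp (-0.40 and 0.84), Egr1 (-0.52 and 0.53), Eln (0.64 and -1.14), Hba-a1 (1.04 and -3.30), Hbb-bs (1.20 and -2.05), Mgll (0.44 and -0.73), Pdlim1 (0.48 and -0.81). Ace, Aqp1, Bcam, Eln, Mgll and Pdlim1, which were higher in members than in arterial ECs of Control, were lower than in arterial ECs of Dach1OE. Bmp6 showed the reverse order.

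For Dach1OE over Control within members, the log2 ratios in XX cells and in XY cells were opposite for Acan (-1.09 and 1.92), Bglap (2.65 and -4.79), Col1a1 (0.44 and -3.51), Col2a1 (-0.55 and 1.10), Col9a1 (-0.40 and 1.76), Dcn (1.48 and -3.55), H19 (-1.93 and 4.63), Mcpt8 (-4.42 and 4.71), S100a10 (0.41 and -1.04), Serpinf1 (1.18 and -3.78), Tagln (0.61 and -2.07), Top2a (1.71 and -2.005). Most of these are matrix, cartilage and blood genes rather than endothelial ones, and the pairs differ in sex and in the animals pooled.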

How the results depend on the processing

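No paired analysis was possible because each group is 1 library, with no replicate libraries to pair; ratios within XX and within XY cells are given as descriptions. The difference between the libraries in the share of members among ECs moved by less than its counting error under each of 12 alternatives, while the share itself was lower at 1000 UMIs per cell (1.14% and 1.39%). Counts of genes at least 2-fold apart are given in the order Dach1OE over Control, members over Edn1-negative ECs (Control, Dach1OE) and members over arterial ECs (Control, Dach1OE). They were 328, 367, 218, 411 and 475 as reported, 108, 198, 88, 207 and 244 with a mean of at least 50 CPM, 1313, 1088, 881, 1168 and 1158 with at least 5 CPM, 939, 705, 474, 796 and 816 in XX cells, and 1548, 1047, 668, 1190 and 930 in XY cells. With the mean of single-cell CPM the first of these were 535, 643 and 348.

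With at least 2 Edn1 UMIs the counts were 1089, 1012, 794, 904 and 848, the type R class 38.7% and 27.6% (Control, Dach1OE), the sinusoidal class 27.4% in Control, and the median log2 ratio of the type R list 2.02 and 1.25 over Edn1-negative and 0.39 and -0.074 over arterial ECs. Cxcl12 (0.19) and Flt4 (0.030) turned for Dach1OE over Control, and Cav1 (0.10) and Flt4 (-0.11) over arterial ECs in Control. With no arterial and no tip gene the type R class was 4.76% and 4.55%, the sinusoidal class 60.3% and 62.1%, and the type R median 0.76 and 0.44 over Edn1-negative and -1.23 and -1.34 over arterial ECs. Counts were 1023 for Dach1OE over Control, 427 over Edn1-negative ECs in Dach1OE, and 825 and 976 over arterial ECs. Cxcl12 for Dach1OE over Control turned to 1.29, and over Edn1-negative ECs in Dach1OE Dach1 to 0.17 and Pdgfd to -0.064. Over arterial ECs, C1qtnf9 (-1.64 and -1.09) and Meox2 (-0.42 and -1.18) turned in both libraries and Fmo2 (-0.33) in Control.

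In members with 2 or more type R class genes the counts were 1832, 1649 and 1351 and the type R medians -0.63, 2.60 and 1.52. This setting itself selects cells on type R genes, so its medians over Edn1-negative ECs are a description. In members with fewer than 2 sinusoidal class genes, an alternative chosen after seeing the data, the counts were 752, 925, 584 and 740 and the medians 2.10 and 1.46 over Edn1-negative and 0.38 and 0.078 over arterial ECs, the last a reversal. Cxcl12 (0.18) and Flt4 (0.019) turned for Dach1OE over Control. Over arterial ECs Stab2 (-3.18 and -3.07), Flt4 (-1.73 and -0.93) and, in Control, Cav1 (0.23) turned, and this setting itself removes cells with Stab2 and Flt4.

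Below 10% mitochondrial UMIs the type R class was 15.1% and the sinusoidal class 47.2% in Control. In XY cells the type R class was 13.3% in Dach1OE and the sinusoidal class 51.5% and 48.9%, Aplnr over Edn1-negative ECs turned to 0.30 and C1qtnf9 over arterial ECs to -0.067, both in Dach1OE. At 1000 UMIs per cell the type R class was 11.9% and 4.71% and the sinusoidal class 20.9% and 16.2%. Flt4 for Dach1OE over Control turned to 0.071 without Scrublet-marked cells and to 0.25 with the mean of single-cell CPM. Smaller pools hold fewer UMIs per gene, and otherwise the cause was not tested.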

Other observations

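Of 15 counted immediate-early and dissociation-response genes, 0 were called higher or lower over Edn1-negative capillary ECs in either library, with median log2 ratios of -0.22 in Control and -0.15 in Dach1OE. Over arterial ECs 0 of 15 were called in Control (median -0.02), and in Dach1OE 1 of 15 was called higher and 0 lower (median 0.64, 12 of 15 ratios positive). Over Edn1-negative cells, cell cycle genes were called higher in 0 of 16 (Control) and 0 of 17 (Dach1OE), and lower in 0 and 1. Over arterial ECs 0 of 17 were called higher and 1 lower in each library. Of all counted genes, 2.75% (Control) and 1.55% (Dach1OE) were called higher and 2.57% and 1.58% lower over Edn1-negative cells. Over arterial ECs these shares were 2.39% and 3.23% higher and 3.56% and 3.65% lower. Lists this short would hold few calls at such shares, so the counts do not show that a response is absent. Of 14 counted transcription factor genes, 2 were called higher and 2 lower over Edn1-negative cells in Control (median log2 ratio -0.06), and 2 higher and 0 lower in Dach1OE (median -0.03). The 2 called higher were Mecom and Ebf1. Mecom was at 54.8 CPM in Control members against 11.4 in Edn1-negative cells and at 59.0 against 23.3 in Dach1OE, and Ebf1 at 211 against 59.5 and 99.5 against 43.1.

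Hypoxia-inducible genes had a median log2 ratio of Dach1OE over Control members of 0.40, beside 2.22% of all counted genes called higher and 2.57% called lower, with 1 of 12 called higher (Slc2a1, a glucose transporter gene, 41.1 and 87.9 CPM) and 1 lower (Nt5e, the CD73 gene, 65.8 and 19.7). Of the study's own list of hypoxia and oxygenation genes, 0 of 6 were called (median -0.05).

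Cells that failed the filters on genes or mitochondrial UMIs but met the rest of the rule numbered 3 in Control and 2 in Dach1OE.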
